A study of Mus musculus with 278 samples.

Results

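The S100a genes encode small calcium-binding proteins, and 9 of the 10 family members looked for had a row among the 14145 genes of the deposited single-cell table: S100a1, S100a3, S100a4, S100a6, S100a8, S100a9, S100a10, S100a11 and S100a13. Membership was set by gene name and not by a level, with earlier results of these data known, and S100a14 was not analysed here. The values are TPM, a level per unit of gene length scaled to the same total in each cell, so levels of different genes can be set side by side. Each cell adds up to 1000000 TPM, which leaves its depth unknown.

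The study's methods describe the cells as keratinocytes cultured from adult mouse dorsal skin. They were grown as a mixture of 9 parts wild type and 1 part K14ΔNβ-cateninER cells. In the K14ΔNβ-cateninER cells the keratin 14 promoter, active in basal keratinocytes, drives a beta-catenin that resists degradation and becomes active when its oestrogen receptor part binds 4-hydroxy-tamoxifen (4OHT). Treated cultures received 200 nM 4OHT for 24 h and untreated cultures received DMSO. The study used this design to ask what activated neighbours do to wild-type cells. The library names fall into series AG, with 66 untreated and 64 treated cells, and series GHA501A, with 71 untreated and 69 treated cells. These 270 cells form 4 library sets, and the labels name no animal or culture behind a set, so each set counted as 1 sample and p-values measure the spread between sets, which may be technical. No attempt was made here to separate transgenic from wild-type cells, so each set may hold both. The study identified transgenic cells from transgene reads and left them out. In GHA501A the treated and untreated cells carry separate ranges of library numbers, whereas those of AG are interleaved. What the numbers stand for is not given, and whatever they mark cannot be told apart from treatment in GHA501A. In AG the names begin with AG1neg in the untreated and AG2pos in the treated set. Whatever this prefix marks cannot be told apart from treatment in AG. A further 8 AG cells, whose name and treatment label conflict, were set aside.

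S100 proteins are calcium sensors with EF-hand motifs that mostly work as dimers and change shape on binding calcium, which lets them grip partner proteins such as annexins, myosin heavy chains and membrane receptors. Many of the genes lie in the epidermal differentiation complex, a cluster that also holds the loricrin, small proline-rich and late cornified envelope genes of the outer epidermis. In skin the family is known for members present in most keratinocytes, for S100a8 and S100a9, which pair to form the alarmin calprotectin and are induced in wounded or inflamed epidermis, and for S100a4, long used as a marker of fibroblasts.

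The keratinocyte label was checked against fixed marker lists before any S100a level was compared, with a score that took the mean log2(TPM + 1) of 15 keratinocyte genes less that of 14 fibroblast genes. Cells above 2 are called keratinocyte-marker-high, cells below -2 fibroblast-marker-high and the rest mixed, and these are ranges of a score, not cell types. Of the 130 AG cells 4 were mixed, 0 were fibroblast-marker-high and the rest (96.97% of untreated and 96.9% of treated cells) were keratinocyte-marker-high. In GHA501A 116 of 140 cells were fibroblast-marker-high, 19 keratinocyte-marker-high and 5 mixed. The data therefore go against the keratinocyte label for most GHA501A cells. Summed keratinocyte markers averaged 11710 TPM in AG untreated, 11713 in AG treated, 708 in GHA501A untreated and 2022 in GHA501A treated cells, with Krt14 the most abundant in every set. Summed fibroblast markers averaged 135.3, 122.3, 3442 and 4030 TPM in the same order, led by Lox in AG and by Col1a1 in GHA501A. Itgb4, a hemidesmosome integrin of the keratinocyte list, was at 0 in both AG sets. Whether both series were counted against the same gene annotation was not tested, so this 0 may not be a level of expression. The 2 endothelial markers with a row summed to at most 0.448 TPM in any set, the 6 melanocyte or Schwann markers to at most 91.04, H2-Ab1, the 1 Langerhans marker with a row, to at most 13.5 and the 5 suprabasal markers to at most 141.5 TPM. The score lay within 0.5 of a limit in 7 cells. No S100a gene enters the score, so the S100a levels are independent of the rule for the classes, although genes of 1 cell share its library.

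All 9 genes lie on mouse chromosome 3 (GENCODE M21, GRCm38), and no spans of members overlap. A group of 7 sits within 184688 bases, in the order S100a1, S100a13, S100a3, S100a4, S100a6, S100a8 and S100a9, from chr3:90511034 to 90695721. S100a11 (chr3:93520488-93526287) and S100a10 (chr3:93555080-93564643) lie further along. S100a1 and S100a9 are on the minus strand and the others on the plus strand. S100a1 (chr3:90511034-90514392) and S100a13 (chr3:90514435-90524581) run away from each other, and their RefSeq start sites (GRCm38.p6) are 105 bases apart. Their promoter region is shown because these genes had the highest correlation of any pair across AG untreated cells, as given with the correlations. Other pairs led in the other sets. The window runs from 250 bases before to 50 bases after the S100a13 start site, plus strand, chr3:90514185-90514484, and capitals mark the bases between the start sites.

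S100a13 and S100a1: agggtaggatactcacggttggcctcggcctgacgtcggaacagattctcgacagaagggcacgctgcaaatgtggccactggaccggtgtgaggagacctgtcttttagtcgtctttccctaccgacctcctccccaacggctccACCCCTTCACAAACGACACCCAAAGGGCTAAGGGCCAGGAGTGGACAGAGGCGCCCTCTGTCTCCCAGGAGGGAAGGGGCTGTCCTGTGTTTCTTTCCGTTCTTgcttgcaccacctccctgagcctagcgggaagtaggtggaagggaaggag

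RefSeq held such windows for 8 of the 9 members. Each was searched on both strands for 4 motifs, and their shares among all 32851 RefSeq promoter windows of the same length give the background. The TATA box was searched as TATAAA, which 13.6% of the windows hold. The motif of AP-1, a factor of stress responses, was searched as TGANTCA and is in 7.81%. The GC box was searched as GGGCGG and is in 35.7%, and the E box as CANNTG, in 72.3%. No motif overlaps another in the sequences shown. TATAAA was found for S100a4, S100a8 and S100a9 and in 1 of 4 S100a3 windows, starting 31 bases before the start site in S100a4, 30 in S100a8, 52 in S100a3 and at the start site itself (0 bases) in S100a9. The S100a11 window held TGANTCA at 2 places and GGGCGG at 3. The windows of S100a4 (plus strand, chr3:90603520-90603819), the member that differed most between the marker classes, and of S100a11 (plus strand, chr3:93520246-93520545), the most abundant member, are shown with the TATA box, AP-1 and GC box letters in capitals. A match is a description of the letters and was not tested as a site.

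S100a4: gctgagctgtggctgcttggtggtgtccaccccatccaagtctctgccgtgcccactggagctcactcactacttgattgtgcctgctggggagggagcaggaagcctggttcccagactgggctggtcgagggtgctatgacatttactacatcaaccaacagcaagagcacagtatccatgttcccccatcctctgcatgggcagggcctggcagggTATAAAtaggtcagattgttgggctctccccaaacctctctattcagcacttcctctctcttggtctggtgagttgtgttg
S100a11: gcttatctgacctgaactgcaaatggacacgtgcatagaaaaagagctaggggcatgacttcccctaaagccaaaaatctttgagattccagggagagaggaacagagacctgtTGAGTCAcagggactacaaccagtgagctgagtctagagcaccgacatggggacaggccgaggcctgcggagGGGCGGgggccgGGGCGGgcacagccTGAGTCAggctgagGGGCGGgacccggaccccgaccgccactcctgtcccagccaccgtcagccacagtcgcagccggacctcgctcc

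The family took a median of 1.00% of all TPM of a cell in AG untreated, 1.23% in AG treated, 0.711% in GHA501A untreated and 0.764% in GHA501A treated cells. S100a11 made up 63.2% of the family total, S100a6 20.5% and S100a10 13.2%, which left 3.12% for the other 6 members. S100a11 was the most abundant member in 253 of 270 cells, S100a6 in 9, S100a10 in 5 and S100a4 in 3. Averaged over the 270 cells the levels ran from S100a11 (5764 TPM) through S100a6 (1868), S100a10 (1207), S100a4 (98.1), S100a1 (81.3), S100a13 (63.7), S100a8 (20.2) and S100a9 (14.8) to S100a3 (6.92). In this order S100a11 and S100a6 were separated in every set. S100a10 and S100a6 changed places in GHA501A untreated cells, and the sets of S100a4, S100a1 and S100a13 overlapped each other, as did those of S100a8, S100a9 and S100a3. The plot of single cells by library set shows this split between a trio found almost everywhere and 6 members not detected in many cells.

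**Figure D1:**
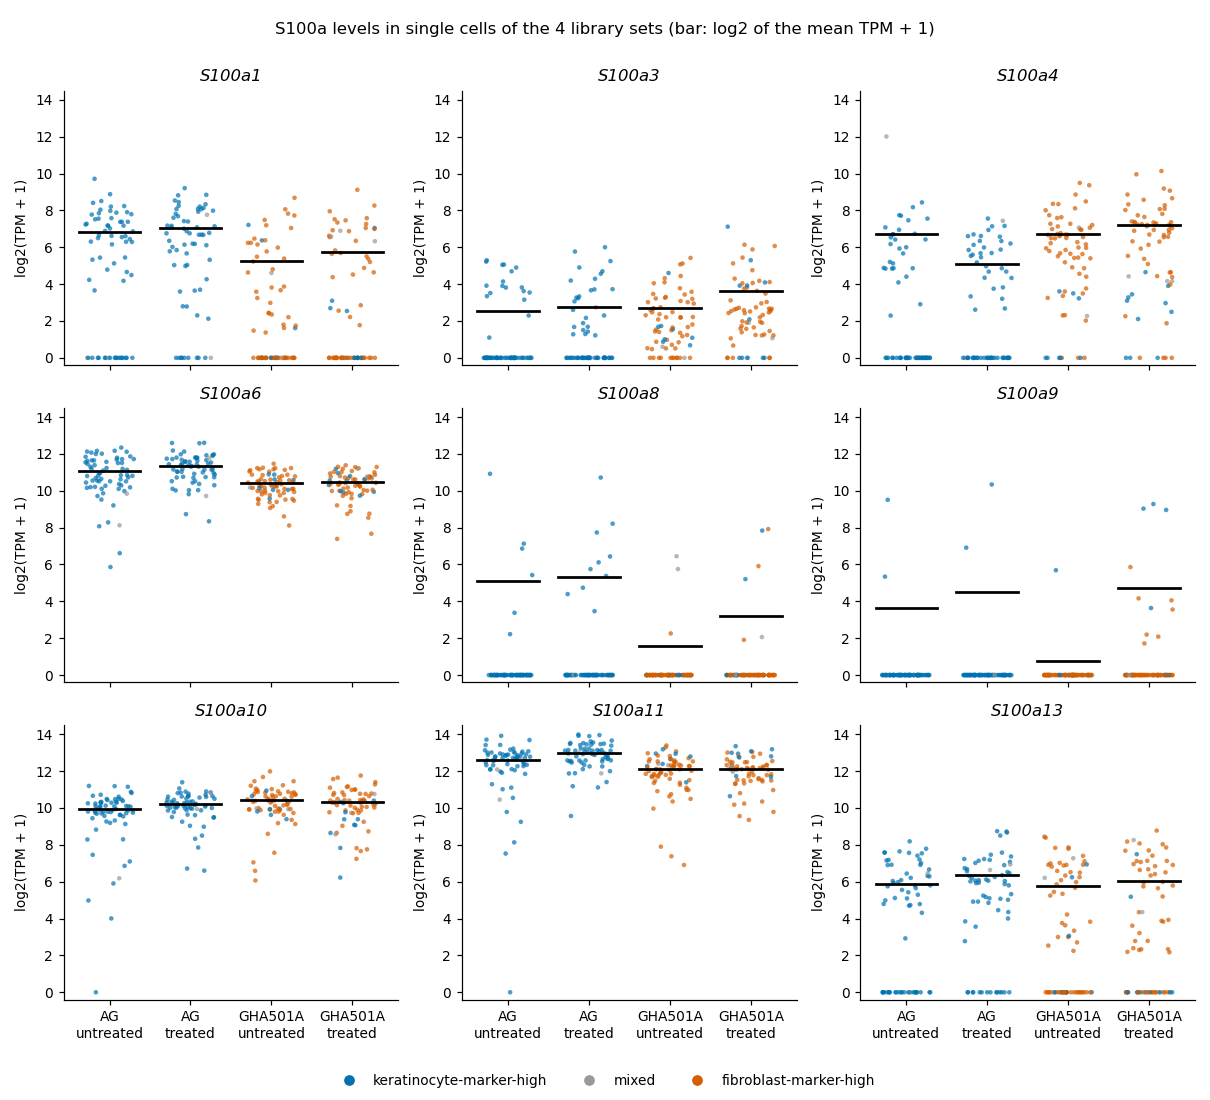
Level of each S100a gene, as log2(TPM + 1), in the single cells of the 4 library sets; each point is a cell coloured by marker class and the black bar is log2 of the mean TPM + 1. S100a6, S100a10 and S100a11 form a band at high level in all sets, S100a4 is at 0 in about as many AG cells as not, and S100a8 and S100a9 are at 0 in nearly all cells.

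S100a11, which binds annexin A1 and is abundant in epidermis, averaged 6187 TPM in AG untreated, 8103 in AG treated, 4492 in GHA501A untreated and 4499 in GHA501A treated cells. It ranked 10, 7, 14 and 14 among all genes by mean TPM in those sets. The AG sets were the higher, without overlap. S100a6 (calcyclin), which is linked to proliferating cells, averaged 2161, 2638, 1347 and 1408 TPM in the same order and was detected (TPM over 1) in all 270 cells, and again both AG sets lay above both GHA501A sets. S100a10, the light chain of the annexin A2 complex, which holds its active shape without calcium, averaged 982, 1183, 1375 and 1273 TPM. Here the GHA501A sets were slightly higher. S100a10 and S100a11 were each detected in 269 of 270 cells, with 1 AG untreated cell lacking each.

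S100a1, best known as a regulator of calcium handling in muscle, averaged 114 TPM in AG untreated, 129 in AG treated, 36.5 in GHA501A untreated and 51.6 in GHA501A treated cells. It was detected in 77.7% of AG cells (Wilson 95% interval 69.8 to 84.0, n = 130) and in 52.9% of GHA501A cells (44.6 to 60.9, n = 140); these intervals cover counting error over cells only. S100a13, which takes part in the export of FGF1, averaged 58.7, 79.99, 53.7 and 63.6 TPM in the 4 sets, so its series overlapped. It was detected in 62.1% of AG untreated, 78.1% of AG treated, 57.7% of GHA501A untreated and 63.8% of GHA501A treated cells. S100a3, a cysteine-rich protein of hair, averaged 4.82, 5.76, 5.62 and 11.4 TPM. It was the lowest member in both AG sets, whereas S100a8 and S100a9 were lower in GHA501A untreated cells and S100a8 in GHA501A treated cells. Its annotated exons in GENCODE M21 span 5660 bases against 511 in S100a11, and a level per length rests on the annotation used.

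S100a4, which binds non-muscle myosin, averaged 104.1 TPM in AG untreated, 32.8 in AG treated, 103.5 in GHA501A untreated and 147 in GHA501A treated cells. The AG untreated mean was carried by 1 mixed cell at 4122 TPM, which held 60.02% of the set's total together with Krt14 at 1734 and Col1a1 at 325 TPM. Its share of cells showed the series apart: S100a4 was detected in 49.2% of AG cells (Wilson 95% interval 40.8 to 57.7) and 89.3% of GHA501A cells (83.1 to 93.4). The median was 0 TPM in AG untreated, 6.82 in AG treated, 61.5 in GHA501A untreated and 100 in GHA501A treated cells.

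S100a8 and S100a9, the calprotectin subunits, came from few cells. S100a8 averaged 34.01, 38.9, 2.01 and 8.26 TPM in AG untreated, AG treated, GHA501A untreated and GHA501A treated cells and was detected in 6, 10, 3 and 6 of them. S100a9 averaged 11.6, 22.1, 0.712 and 25.5 TPM and was detected in 2, 2, 1 and 11 cells. A single cell gave 86.2% of the S100a8 total and 94.8% of the S100a9 total in AG untreated cells, at 1936 and 727 TPM, and a single AG treated cell gave 67.5% and 91.6%, at 1680 and 1297 TPM. Both are keratinocyte-marker-high cells, with Krt14 at 7982 and 8912 TPM. Of the 16 AG cells with S100a8, 3 also had S100a9, and 1 of the other 114 AG cells did. In GHA501A 1 of 9 cells with S100a8 had S100a9, and 11 of the other 131 cells did, so that 19 of the 20 GHA501A cells with either subunit had 1 alone. Of 15 neutrophil and macrophage markers listed, another source of these subunits, 5 had a row. Their summed level was 874, 574, 585 and 1317 TPM over the 4 sets, led by Cxcr2 in AG and by Lyz2 in GHA501A, and their part in the S100a8 and S100a9 values was not tested.

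The first comparison asked how the series differ, with log2(mean TPM + 1) of each set as the measure and AG minus GHA501A as the difference. With limma and Benjamini-Hochberg adjustment over 12355 genes, a call needed an adjusted p under 0.05 and a log2 difference over 0.5 in size. S100a1, S100a6, S100a8 and S100a11 were higher in AG, 4 of 9 members against 33.7% of all genes called in either direction and 13.6% called higher. No member was called lower in AG, against 20.1% of all genes. The median difference was 0.66 over the 9 members and -0.01 over all genes.

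S100a8 had the largest difference, 2.82 (SE 0.51, limma adjusted p = 0.0089), a fold of 7.08 on this scale, with 3.54 between the untreated and 2.11 between the treated sets, which are the values left when a set of the other treatment is left out. Without the highest cell of each set it was 1.46 (adjusted p = 0.0284). S100a1 differed by 1.46 (SE 0.28, adjusted p = 0.0106), or 2.76-fold, and S100a6 by 0.79 (SE 0.17, adjusted p = 0.0151), or 1.73-fold. S100a11 differed by 0.66 (SE 0.16, adjusted p = 0.0269), or 1.57-fold, and missed the threshold at 0.0684 with no filter on low values. S100a4 was lower in AG by 1.06 without passing the test (95% interval -2.32 to 0.20, adjusted p = 0.168). With the highest cell of each set left out its difference was -1.62 (adjusted p = 0.0093), past the threshold. With the mean of log2(TPM + 1) over cells as the measure, the calls of S100a6 (adjusted p = 0.121) and S100a11 (0.144) were lost, S100a8 was under the size limit at 0.44, and S100a4 (-2.62) and S100a13 (0.86) were called. The intervals of S100a3, S100a9, S100a10 and S100a13 on the log2(mean TPM + 1) scale all included 0, with differences of -0.53, 1.34, -0.29 and 0.23.

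The series also differ in the marker classes, and much else differs between them. A total of 215 genes averaged over 10 TPM in both GHA501A sets and under 0.1 TPM in both AG sets, and 41 genes did the reverse. Bsg, a membrane receptor bound by S100A9, averaged 0.413 and 0.0755 TPM in AG untreated and treated cells but 284 and 322 TPM in GHA501A, where every cell had it, and Anxa7 averaged 0.0776 and 0.0933 against 50.8 and 66.4 TPM. Their part in the S100a differences was not tested, and series, culture and processing cannot be told apart.

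The second comparison asked whether S100a levels differ between the marker classes within GHA501A, where each library set holds both classes. Untreated cells comprised 8 keratinocyte-marker-high and 61 fibroblast-marker-high cells and treated cells 11 and 55. S100a4 was the 1 member of 9 called, against 2.57% of all genes called in either direction (1.30% higher and 1.27% lower), and it was lower in keratinocyte-marker-high cells. It averaged 3.73 TPM in untreated and 7.18 TPM in treated keratinocyte-marker-high cells against 117.7 and 182.6 TPM in fibroblast-marker-high cells. The classes did not overlap, and the log2 difference was -4.57 (SE 0.49, limma adjusted p = 0.0296), or 23.7-fold lower. Among the 19 keratinocyte-marker-high cells of GHA501A the highest S100a4 value was 24.1 TPM, and it was detected in 11 of them against 109 of 116 fibroblast-marker-high cells. The call was lost at an adjusted p of 0.0563 when the classes were set from Krt14 and Col1a1 alone and at 0.0758 with no filter on low values. With an AG set left out, which leaves the fit fewer samples, the adjusted p was 0.269 or 0.274 at the same difference.

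**Figure D2:**
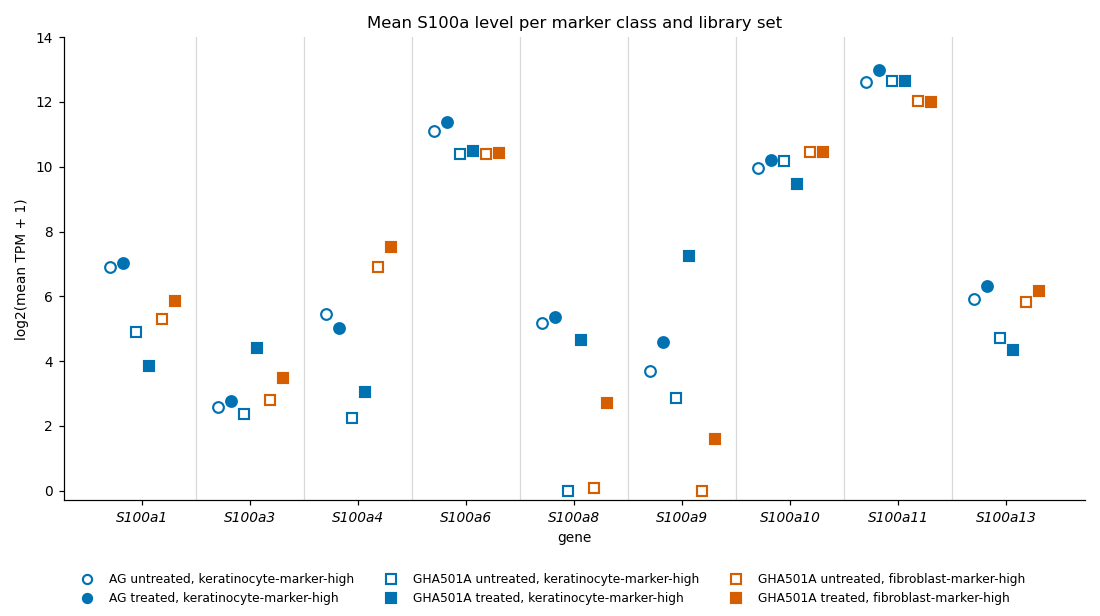
Mean level of each S100a gene, as log2(mean TPM + 1), in the 6 combinations of library set and marker class; circles are AG and squares GHA501A, open symbols untreated and filled symbols treated. S100a4 is lowest in the GHA501A keratinocyte-marker-high cells, at 3.73 and 7.18 TPM, and S100a6 lies at the same height in both GHA501A classes.

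The other members did not pass the test between the classes. S100a11 averaged 6452 and 6460 TPM in untreated and treated keratinocyte-marker-high cells against 4210 and 4111 TPM in fibroblast-marker-high cells, a log2 difference of 0.63 (95% interval 0.09 to 1.18, limma adjusted p = 0.214). S100a13 averaged 25.4 and 19.5 against 55.4 and 70.04 TPM, a difference of -1.45 (95% interval -2.44 to -0.45, adjusted p = 0.141). The classes also lay apart for these genes and for S100a1, S100a9 and S100a10, but none of them was called. The share of all genes that lay apart is not given here, so this is no result about the members. S100a9 averaged 6.31 TPM in untreated keratinocyte-marker-high cells, from 1 of 8 cells, and 150 TPM in treated ones, where 3 of 11 cells had between 496 and 620 TPM, against 0 and 1.99 TPM in fibroblast-marker-high cells. Its difference was 4.26 (95% interval 1.76 to 6.77, adjusted p = 0.102), made of 2.87 without and 5.66 with treatment. S100a6 differed by 0.03 (95% interval -0.49 to 0.55), and its means of 1358 and 1432 TPM lay beside 1351 and 1377 TPM. S100a10 was lower by 0.63 in keratinocyte-marker-high cells (95% interval -1.37 to 0.11), at 1153 and 713 against 1416 and 1400 TPM. S100a1 had a difference of -1.19 (95% interval -2.45 to 0.07), made of -0.39 without and -1.99 with treatment. The intervals of S100a3 and S100a8, with differences of 0.25 and 0.93, included 0.

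**Figure D3:**
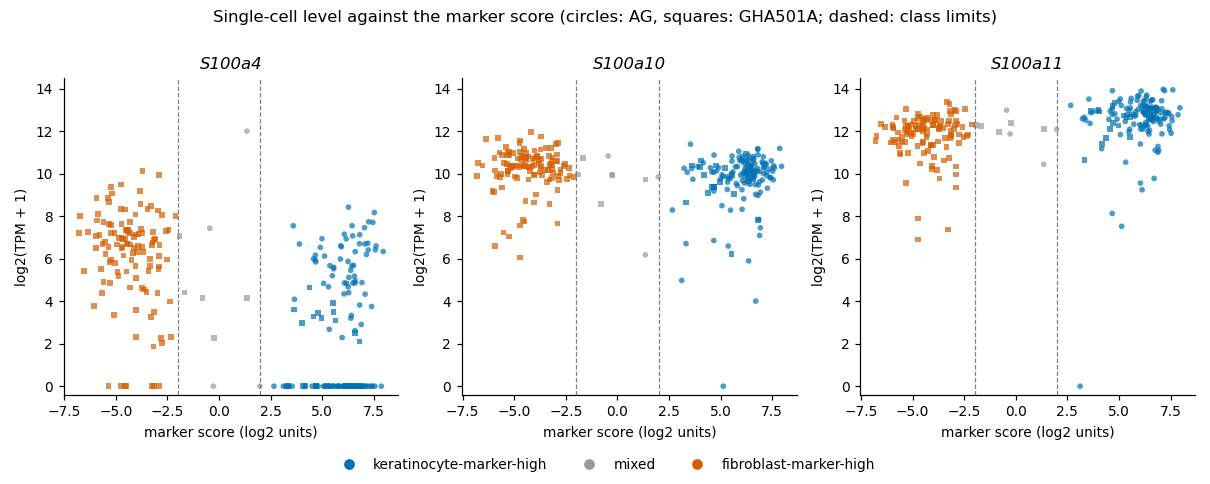
Level of S100a4, S100a10 and S100a11, as log2(TPM + 1), against the marker score of each cell, with the class limits dashed; circles are AG and squares GHA501A. S100a4 is high on the fibroblast side and mixed with zeros on the keratinocyte side, while S100a10 and S100a11 are detected in nearly all cells across the score.

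The third comparison set keratinocyte-marker-high cells of AG against those of GHA501A, which takes the mix of classes out of the comparison. S100a1, S100a4 and S100a13 were called, all higher in AG, 3 of 9 members against 19% of all genes called in either direction, 8.20% higher and 10.8% lower. S100a4 averaged 42.9 and 31.1 TPM in AG untreated and treated cells of this class against 3.73 and 7.18 TPM in GHA501A, a log2 difference of 2.59 (SE 0.49, limma adjusted p = 0.0244). It was detected in 45.3% of untreated and 53.2% of treated AG cells of this class and in 37.5% and 72.7% of the GHA501A ones. In the treated sets the share of cells with S100a4 thus ran against the direction of the means, with 95% Wilson intervals that overlapped (40.98% to 65.1% in AG and 43.4% to 90.3% in GHA501A). With the mean of log2(TPM + 1) over cells its difference was 0.96 (adjusted p = 0.156). S100a1 averaged 117.9 and 129.6 against 28.9 and 13.5 TPM, a difference of 2.58 (SE 0.50, adjusted p = 0.0259). S100a13 averaged 59.1 and 79.03 against 25.4 and 19.5 TPM, a difference of 1.58 (SE 0.39, adjusted p = 0.0496), a call lost in 5 alternatives, with adjusted p from 0.0535 to 0.303. The series lay apart for these genes, as they did for S100a6 and S100a8, which were not called. The share of all genes that lay apart is not given here, so this is no result about the members. The GHA501A means rest on 8 and 11 cells.

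S100a6 was higher in AG by 0.80 at an adjusted p of 0.0529 in the same limma fit. It passed in 4 alternatives, at 0.0401 without cells under 5000 genes, 0.0428 with 0.1 as pseudocount, 0.0431 with the stricter gene filter and 0.0352 without the highest cell of each set. S100a11, called between the whole series, differed by 0.15 within the class (95% interval -0.39 to 0.69), with 6290 and 8172 TPM in AG. S100a8 differed by 2.95 (95% interval 0.06 to 5.84, adjusted p = 0.141). The calls of S100a1, S100a4 and S100a13 were each lost when an AG set was left out, with adjusted p from 0.123 to 0.303 in a fit with fewer samples. Whether S100a4 in AG differs from S100a4 in the GHA501A fibroblast-marker-high cells was not tested.

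The fourth comparison asked what changed after 4OHT, with the series as a block. No member was called and 0.00% of all genes were: limma called 0 of 12355 genes, with 486 at an unadjusted p under 0.05, and without the block it called 0, with 27 at an unadjusted p under 0.05. The adjusted p was 0.998 for each of the 9 members. Only S100a9 had an unadjusted p under 0.05. Treated minus untreated differences were above 0 for 8 of 9 members, beside 49.9% of all genes, with a median of 0.33 against -0.00089 over all genes. S100a9 had the largest, 2.41 (SE 0.77, 95% interval 0.51 to 4.32), with log2 differences of 0.88 in AG and 3.95 in GHA501A. The means behind them, 11.6 to 22.1 and 0.712 to 25.5 TPM, come from the few cells described above.

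S100a11 differed between treated and untreated sets by 0.20 (95% interval -0.20 to 0.60), S100a6 by 0.18 (-0.23 to 0.58) and S100a10 by 0.08 (-0.38 to 0.53). S100a11 was higher by 0.39 in AG and by 0.0023 in GHA501A, from 6187 to 8103 TPM in AG and from 4492 to 4499 TPM in GHA501A. The AG untreated set held 11 cells with fewer than 5000 detected genes and the AG treated set 7, against 1 and 2 in GHA501A. Without these cells the S100a11 difference was 0.15 and that of S100a6 0.17, and no member was called. Within keratinocyte-marker-high cells 0 members and 0.00% of genes were called after treatment, with 313 genes at an unadjusted p under 0.05 in limma. S100a9 was higher by 2.62 (95% interval 0.46 to 4.78) and S100a8 by 2.42 (-0.24 to 5.08) in this class. Their differences were 0.88 and 0.19 in AG and 4.37 and 4.64 in GHA501A. The GHA501A values rest on 4 and 2 positive cells of 11 treated cells. S100a8 was not detected in the 8 untreated GHA501A cells of the class, and 1 treated cell held 86.4% of its total.

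Levels of members were also compared across the cells of each set by Spearman correlation, given as a description since cells of a set share libraries and are not replicates. The summary covers S100a1, S100a4, S100a6, S100a10, S100a11 and S100a13, each detected in at least 45.5% of the cells of every set, a choice made after their values were seen. Among these 6 all 15 pairs were positive in AG, with a median rho of 0.37 over 66 untreated cells and 0.38 over 64 treated cells. Pairs with the sparser S100a3, S100a8 or S100a9 reached below 0 in AG, down to -0.19 for S100a3 with S100a8 in untreated cells. In GHA501A the median over the 15 pairs was 0.18 in both sets, over 71 and 69 cells, with 11 and 14 pairs above 0. In cells with at least 5000 genes the medians were 0.30, 0.34, 0.19 and 0.21. The values of pairs of other genes are not given here, so these counts and medians are no result about the members. S100a1 and S100a13, the neighbours shown above, had the highest value of any pair in AG untreated cells, 0.64, with 0.43 in AG treated cells, 0.23 in GHA501A untreated and 0.12 in GHA501A treated cells. In cells with at least 5000 genes these were 0.51, 0.33, 0.21 and 0.12. S100a6 with S100a13 and S100a4 with S100a6 each reached 0.51 in those AG untreated cells. Over all cells, other pairs led in the other sets. These were S100a1 with S100a6 at 0.52 in AG treated cells and S100a10 with S100a11 at 0.37 in GHA501A untreated cells. In GHA501A treated cells it was S100a6 with S100a11 at 0.34. S100a13 also ran with the number of genes detected, at 0.53 in AG untreated and 0.12 in AG treated cells. The part of depth in its pairing with S100a1 was not otherwise tested. In AG 84 of 101 cells with S100a1 also had S100a13, against 7 of 29 cells without S100a1. In GHA501A these were 53 of 74 and 32 of 66 cells. Whether the series differ in this pairing was not tested.

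**Figure D4:**
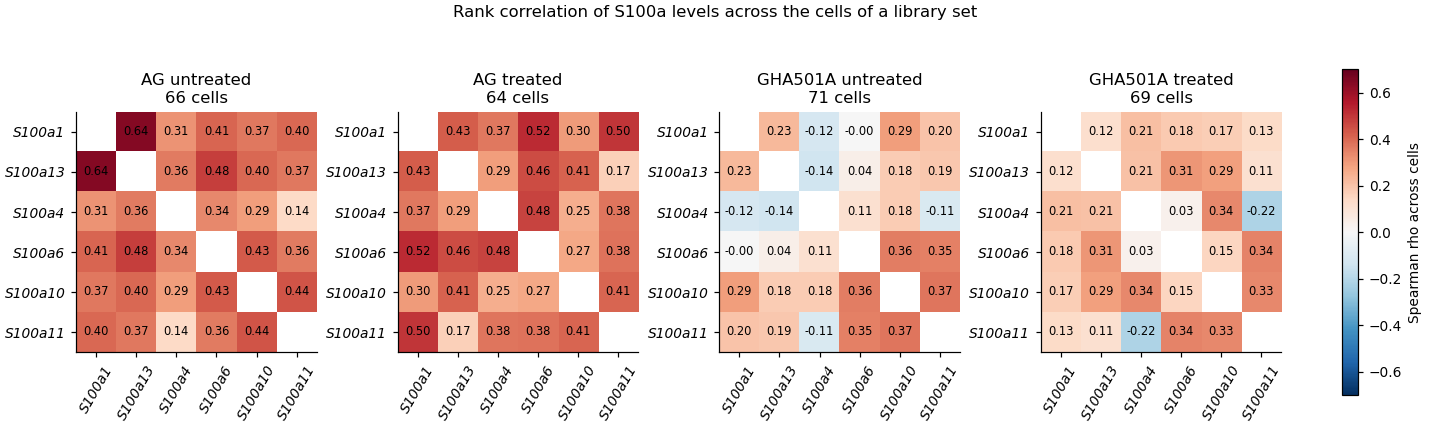
Spearman correlation of levels across the cells of each library set for 6 S100a genes, with the value in each square and the colour running from -0.7 to 0.7. All AG pairs of these 6 genes are positive, while S100a4 pairs in GHA501A fall on both sides of 0.

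**Figure D5:**
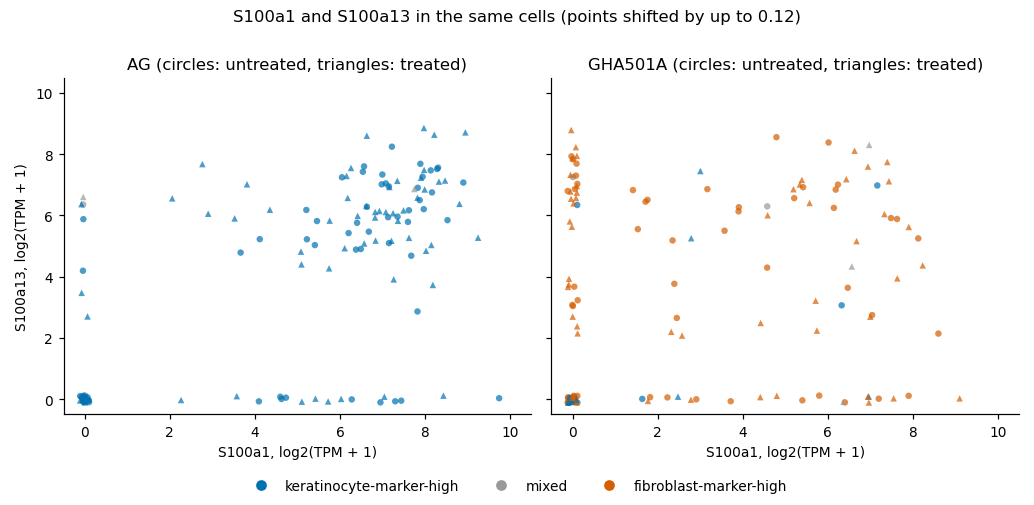
Level of S100a13 against S100a1, as log2(TPM + 1), in AG cells and GHA501A cells, with points shifted by up to 0.12 for visibility. In AG 84 of 130 cells have both genes, and in GHA501A the cells with only 1 of them are more spread along the axes.

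S100a4 ran against the keratinocyte side of the score in GHA501A, with a rho of -0.57 in untreated and -0.36 in treated cells, and of 0.01 and 0.08 in AG. Within fibroblast-marker-high cells alone it was -0.42 and 0.06. The 3 genes outside the family most like it in GHA501A, by the mean of the 2 within-set correlations over 8633 genes, were Col6a2 (0.58), Col1a1 (0.54) and Col6a3 (0.53), all collagen genes of the fibroblast list that sets the score. Within fibroblast-marker-high cells Col6a2 ranked 5 at 0.39. In AG they were Gstm2, Rsrc1 and Gbp2, at 0.39, 0.39 and 0.36 over 8292 genes. For S100a10 the gene most like it in GHA501A was Anxa2, its annexin partner, at 0.48, followed by Eno1b and Eno1 at 0.48. Within fibroblast-marker-high cells Anxa2 was again the first of 8633, at 0.52. In AG Anxa2 ranked 16 of 8292 for S100a10 at 0.42, behind Tmem45a, Tspo and Lxn at 0.49, 0.48 and 0.47.

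For S100a11 the gene most like it in GHA501A was its partner Anxa1, at 0.46, followed by Rpl41 and Uqcrh at 0.43. Anxa1 ranked 42 within fibroblast-marker-high cells and 776 in AG. In AG the leading genes for S100a11 were Atox1, Cbr2 and Lamtor2, at 0.54, 0.49 and 0.49. For S100a1 they were Serpinb6b, Trappc2l and Atraid in AG (0.52, 0.50 and 0.49) and included Ech1 and Anxa5 in GHA501A (both 0.34). S100a13 went with Tspyl1, Tmsb4x and Actg1 in AG, up to 0.55, and with Scp2, Gstm1 and Ndufc1 in GHA501A, up to 0.37. S100a6 went with Itm2b, Tmsb4x and Pfdn5 in AG, up to 0.49, and with Hsbp1, Ndfip2 and Rpl10 in GHA501A, up to 0.38. S100a3 went with Kars, Tmsb10 and Ap2m1 in AG, up to 0.41, and with Maats1, Dpp10 and Tyr in GHA501A, up to 0.46. The sparse S100a8 and S100a9 had leading values between 0.32 and 0.37, which in sparse counts is no finding.

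Other genes of the pathway were taken from fixed lists. Of 8 further S100 genes, 6 were tested, and 3 were higher in AG than in GHA501A and 0 lower, beside 13.6% of all genes called higher and 20.1% lower. These all-gene shares are the background for every list count between the whole series given here. S100a16, a widely expressed member, averaged 219 and 290 TPM in AG and 30.1 and 28.05 TPM in GHA501A, a log2 difference of 3.07 (SE 0.28, limma adjusted p = 0.0010). It was also called between the classes in GHA501A, with 137 and 81.6 TPM in keratinocyte-marker-high against 15.3 and 18.7 TPM in fibroblast-marker-high cells (2.57, limma adjusted p = 0.0495), the opposite direction to S100a4. S100a2 and S100b were listed at 0 in the GHA501A untreated set and reached 16.7 and 13.3 TPM at most in AG. After treatment 0 of the 6 were called.

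Of 16 annexins and binding partners tested, 4 were higher and 5 lower in AG than in GHA501A, or 9 of 16 called beside 33.7% of all genes. Anxa1, the S100a11 partner, averaged 7560 and 7116 TPM in AG and 1957 and 2808 TPM in GHA501A (1.65, limma adjusted p = 0.0021). Within GHA501A it averaged 6624 and 7942 TPM in keratinocyte-marker-high and 1372 and 1849 TPM in fibroblast-marker-high cells (2.19, adjusted p = 0.0292), while S100a11 was not called there. Anxa2, the S100a10 partner, averaged 2088, 2745, 2157 and 2309 TPM in the 4 sets. Like S100a10, it was not called between the series. Its difference between the classes was -0.01 (adjusted p = 1) beside -0.63 for S100a10, which was not called either. Anxa3 and Ahnak, a giant scaffold that binds the S100a10 complex, were also higher in AG, by 1.90 and 1.13. Fgf1, the growth factor exported with S100a13, averaged 24.6 and 24.3 TPM in AG against 0 and 1.80 TPM in GHA501A and was called. Anxa5, Anxa7, Myh9, Plat and Plaur were lower in AG, Myh9 being the myosin that S100a4 binds, by 0.73. Anxa7 is among the 215 genes near 0 in both AG sets, and whether both series were counted against the same gene annotation was not tested, so its value may not be a level of expression.

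Of 5 receptor and signalling genes tested, Bsg was the 1 called between the series, with the same doubt about annotation as Anxa7, and Ager, the receptor for advanced glycation end products, was near the bottom of the scale, at 0.207, 0.582, 0.134 and 0.0570 TPM. Of 19 epidermal differentiation complex genes tested, 8 were higher in AG and 2 lower, beside 13.6% and 20.1% of all genes. Sprr1a, a small proline-rich envelope precursor, averaged 2701 and 3003 TPM in AG and 72.7 and 403 TPM in GHA501A (4.05, adjusted p = 0.0025 in limma), and Lce1g was lower in AG by 2.57. Sprr1b was called between the classes in GHA501A, at 165.4 and 992 against 0.183 and 14.6 TPM. Of 12 alarmin and wound-type keratin genes tested, Krt6a, Krt6b, Krt17 and Il1a were higher in AG and Lcn2, Il1rn, Il33, Cxcl1 and Slpi lower, 4 and 5 genes beside the same shares. Krt16, a wound-type keratin, averaged 426, 497, 9.61 and 444 TPM over the 4 sets. It was not called and, like Ager, is named after its values were seen. In GHA501A keratinocyte-marker-high cells it averaged 2641 TPM in the 11 treated and 47.7 TPM in the 8 untreated cells. Over the 12 list genes tested, the median difference after treatment in keratinocyte-marker-high cells was 0.30, beside 0.06 over all genes, with 0 called. Whether the cells with S100a9 were those with Krt16 was not tested. No list gave a call after treatment. Between the series within keratinocyte-marker-high cells, 0 of 12 alarmin and wound-type keratin genes were called higher in AG and 4 lower. Of 16 annexins and partners 0 were higher and 2 lower, and of 19 differentiation complex genes 4 and 1. Of 6 further S100 genes 2 were higher and 0 lower, and of 5 receptor genes 0 and 1. Among all genes 8.20% were higher and 10.8% lower there. Summed S100a level and the suprabasal marker list had a rho of 0.35 across AG untreated cells and -0.13 across AG treated cells, with 0.05 and 0.07 in GHA501A.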

How the data were processed

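The deposited values are TPM for single cells on a Fluidigm C1 chip (SMART-Seq v4, Nextera XT). Per the labels and methods, cutadapt trimming, TopHat alignment to GRCm38 with reads of several hits dropped, and featureCounts preceded the conversion to TPM by the authors; versions are not given in the sources used here. Reads from near-identical copies are thereby lost. Of 294 columns, 16 matched no label and were not used. The S100a members, gene lists and tests were chosen with earlier results of these data known.

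Mean TPM was taken per library set, or per marker class where a set held at least 5 of its cells, and log2(mean + 1) was fitted with limma 3.58.1 in R 4.3.3 (trend, two-sided, Benjamini-Hochberg over the 12355 genes that exceeded 1 TPM in more than 5 cells). Fold changes are on that scale and understate changes of low genes. Cells were never replicates. Named genes are all members, genes called in a list or its 3 most abundant (Ager and Krt16 were added after their values were seen), and the 3 genes most alike among those over 1 TPM in 20% of cells of each set, of which 1 is not reported here. Alternatives varied the pseudocount, gene filter, averaging, cells kept, class rule, block and sets; S100a14 was not analysed here. The highest cell left out was added after seeing the data. The steps were tested on simulated data. Other steps ran in scipy 1.17.1, pandas 2.3.3 and numpy 2.4.6 under Python 3.11.15, with plots from matplotlib 3.10.9.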

Additional observations from a re-analysis of the deposited data

Results flagged for a closer look

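Some S100a genes differed after treatment in opposite directions in the 2 series, each series holding 1 treated and 1 untreated set, and these differences between the series were not tested. Over all cells the treated minus untreated log2 difference of S100a4 was -1.63 in AG and 0.51 in GHA501A, and that of S100a10 was 0.27 and -0.11. The AG value of S100a4 includes the mixed cell at 4122 TPM in the untreated set. In keratinocyte-marker-high cells the differences in AG and GHA501A were 0.13 and -1.04 for S100a1, -0.45 and 0.79 for S100a4, 0.24 and -0.69 for S100a10, and 0.41 and -0.37 for S100a13, with 8 and 11 cells behind the GHA501A values. The 5 AG cells with an untreated name but a treated label were left out of the main comparisons. Their highest S100a6 value was 6095 TPM and their highest S100a10 value 4808 TPM. Each lay above every AG untreated cell (5186 and 2344 TPM). The highest AG treated values were 6212 TPM for S100a6 and 2692 TPM for S100a10. S100a4, S100a8 and S100a9 were at 0 TPM in all 5 of the cells left out.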

How the results depend on the processing

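With the mean of log2(TPM + 1) over cells in place of log2 of the mean, the genes called numbered 5 after treatment (0 members), 6305 between the series and 598 between the classes. Between the classes 502 genes were called with the filter at 10% of cells, 951 without the highest cell of each set, 21 with no filter, and 0 with either AG set left out. Between the series within keratinocyte-marker-high cells 3734 were called without the highest cell and 0 to 301 with an AG set left out. Without the series as a block 0 genes were called after treatment, as with it. With a set left out of the 4-set fits no residual degrees of freedom remain, so only values are given.

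Uncalled members reversed as follows. After treatment S100a4 was 0.030 without cells under 5000 genes, 0.012 without the highest cell, 0.23 with the mean of logs and -1.63 to 0.51 with a set left out, and S100a10 -0.11 to 0.27 with a set left out. Between the series S100a9 was -0.97 without the highest cell, -0.19 with the mean of logs and -0.20 to 2.88 with a set left out, and S100a4 -2.13 to 0.0080. Between the classes S100a3 was -0.73 without the highest cell, -0.28 with the mean of logs and -0.43 to 0.94 with a set left out, S100a6 -0.031 without the highest cell, and S100a8 -0.087 to 1.94 with a set left out. Between the series within the keratinocyte class S100a3 was 0.23 without the highest cell, S100a11 -0.018 with the mean of logs, and with a set left out S100a3 was -1.64 to 0.21, S100a9 -2.66 to 0.83, S100a10 -0.21 to 0.72 and S100a11 -0.046 to 0.35. After treatment within that class S100a13 was -0.0063 with the 8 cells placed by label, -0.10 without cells under 5000 genes, -0.032 with class limits of 1, -0.54 without the highest cell and -0.0039 with the mean of logs. There S100a4 was -0.39 with class limits of 1 and -0.35 with Krt14 and Col1a1 alone, and S100a1 0.024 with the mean of logs. With a set left out S100a1 was -1.04 to 0.13, S100a4 -0.45 to 0.79, S100a10 -0.69 to 0.24 and S100a13 -0.37 to 0.41. The cause was not tested. Cell depth is unknown, which limits what a value of 0 shows.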
